A study of Mus musculus with 14 samples.

Results

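The last part of bile acid synthesis was followed through 10 of the 54532 genes in the deposited count table, chosen by name as enzymes of peroxisomal side chain shortening and of amino acid conjugation. They are Slc27a2, Abcd3, Amacr, Acox2, Hsd17b4, Scp2, Acot8, Slc27a5, Baat and Acnat2, and all 10 passed the low-count filter that 17874 genes passed. RNA-seq libraries were made from livers of 52-week-old C57BL/6J mice. The groups were tumour tissue of Abcb11-/- females (n = 3), non-tumour liver tissue of Abcb11-/- females (n = 3), wild-type females (n = 2), Abcb11-/- males (n = 3) and wild-type males (n = 3). The product of Abcb11 is the bile salt export pump, through which hepatocytes release conjugated bile acids into bile. The labels name no drug, diet or further allele in any group, and they do not say which part of Abcb11 the knockout removes.

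A bile acid starts as cholesterol, whose ring is modified and whose side chain is hydroxylated before it reaches the peroxisome. The side chain is activated to a coenzyme A thioester. In the peroxisome it is brought to the right stereoisomer, oxidised, hydrated and cleaved, so that a C27 intermediate becomes a C24 bile acid. The bile acid is then joined to an amino acid, in mice almost always taurine, and the conjugate is the form that the export pump carries. Slc27a2 encodes an acyl-CoA synthetase that can activate the intermediates. Abcd3 is a transporter of the peroxisomal membrane. Amacr is a racemase, Acox2 the branched-chain acyl-CoA oxidase, Hsd17b4 the D-bifunctional protein and Scp2 the source of the thiolase and of a sterol carrier protein. Acot8 is a peroxisomal thioesterase, Slc27a5 the bile acid-CoA ligase, Baat the amino acid N-acyltransferase and Acnat2 a relative of Baat that lies beside Acnat1, an enzyme known in mice for joining fatty acids to taurine.

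The promoter stretches that follow are those of Acot8 and Acnat2, the genes called lower in knockout females, and of Acnat1, the neighbour and sequence relative of Acnat2. They were taken from RefSeq on GRCm38.p6, hold no annotated exon base, are read 5′ to 3′ on the gene's strand, and carry CCAAT, in either orientation, in capitals.
Acot8: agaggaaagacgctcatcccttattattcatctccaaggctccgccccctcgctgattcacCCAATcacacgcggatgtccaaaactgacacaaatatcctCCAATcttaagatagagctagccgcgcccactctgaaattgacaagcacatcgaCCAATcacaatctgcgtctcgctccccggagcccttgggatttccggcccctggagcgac
Acnat2: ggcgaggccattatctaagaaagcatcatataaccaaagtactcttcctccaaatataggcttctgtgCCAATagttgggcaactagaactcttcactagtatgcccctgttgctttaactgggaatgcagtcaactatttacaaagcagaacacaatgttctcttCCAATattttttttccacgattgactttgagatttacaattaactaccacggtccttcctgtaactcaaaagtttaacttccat
Acnat1: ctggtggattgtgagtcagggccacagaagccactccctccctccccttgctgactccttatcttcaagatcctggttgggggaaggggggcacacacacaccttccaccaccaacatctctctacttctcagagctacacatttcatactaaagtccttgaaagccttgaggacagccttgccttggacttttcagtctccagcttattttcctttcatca
The Acot8 stretch is chr2:164804883-164805097, that of Acnat2 is chr4:49408152-49408401 and that of Acnat1 is chr4:49451138-49451359, all on the minus strand. The Acnat1 stretch lies before an internal start, since its gene model runs to 49473912. RefSeq gives Acnat2 a second start further into the gene, whose window is not printed and holds 1 CCAAT, on the reverse strand. The bases just after that second start occur as an unbroken run in an annotated Acnat2 transcript. Those just after the outer start, whose window is printed, were found as such a run in none. CCAAT began 155, 115 and 61 bases before the Acot8 start and 182 and 84 bases before the outer Acnat2 start. The Acnat1 stretch held none. CCAAT was found on either strand in 33.8% of 32817 RefSeq windows of 250 bases before a start, so these matches describe the sequence and mark no site. The half-site AGGTCA, present in 14% of windows, matched in the windows of Scp2 and, on the reverse strand, Slc27a2. The letters TGACNNNGC, present in 10.2% of windows, matched on the reverse strand in the windows of Acox2. The Slc27a2 window and each Acox2 window lie inside the gene model, and all 250 of their bases are annotated exon bases. Windows were on hand for 6 of the 10 members, not for Baat, Slc27a5, Amacr and Hsd17b4.

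Depth and quality were similar in outline across libraries but not even. Between 14745140 and 19480538 fragments were counted per library, and levels are given here as CPM (fragment counts scaled to a common library size) after TMM scaling. Abcb11 itself was at 18 to 34.3 CPM in tumour tissue, 17.9 to 35.9 CPM in non-tumour liver of knockout females and 62.1 to 104 CPM in knockout males, against 270.2 and 489 CPM in wild-type females and 298 to 322 CPM in wild-type males. The mitochondrially encoded share of counts ran from 15.7% in knockout male 3 to 42.2% in wild-type male 3. A clock score, the mean log2 CPM of 8 genes that peak in the evening minus that of 4 that peak in the morning, was 3.41, 2.65 and 3.12 in knockout males and -2.09, -1.51 and -1.88 in wild-type males. The 2 male groups did not overlap in that score, so genotype and clock phase cannot be told apart between them. In females the score was -0.26, 2.46 and 4.0 in tumour tissue, -0.55, 2.97 and 4.66 in non-tumour liver and 1.87 and 1.12 in wild type, and the groups overlapped.

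**Figure D1:**
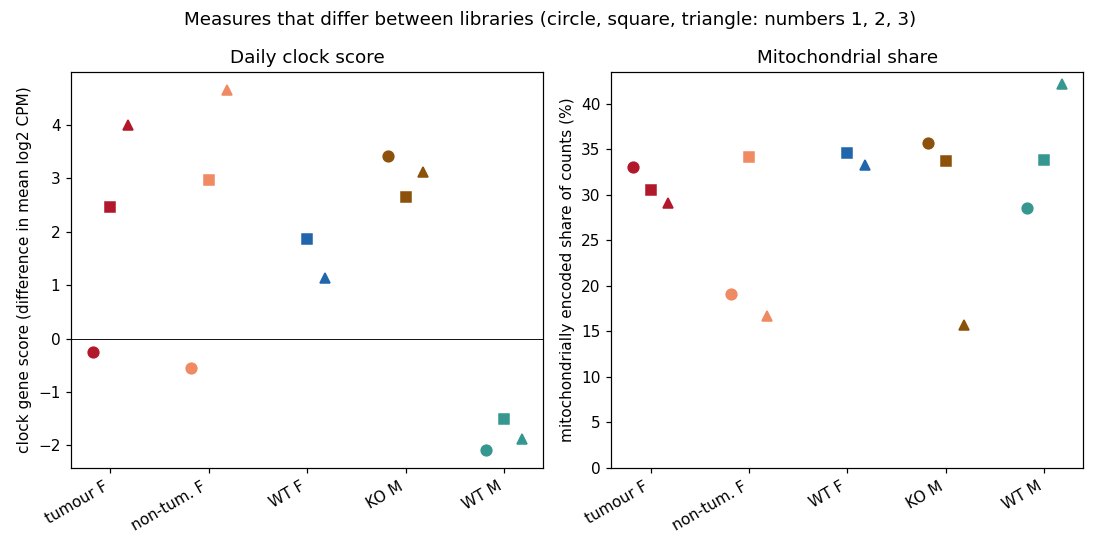
Clock gene score (left, difference in mean log2 CPM) and mitochondrially encoded share of counts in percent (right) in each of 14 libraries, by group; marker shapes are the library numbers. The 3 knockout males lie at or above 2.65 and the 3 wild-type males at or below -1.51 in the clock score, while the mitochondrial share runs from 15.7% to 42.2%.

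All 8 hepatocyte markers were present in every group, with summed levels of 46986 to 83038 CPM in tumour tissue, 49722 to 87152 CPM in non-tumour liver of knockout females, 44589 and 47480 CPM in wild-type females, 59111 to 70566 CPM in knockout males, against 26472 to 57487 CPM in wild-type males. The 6 cholangiocyte markers summed to 660 to 1349 CPM in tumour tissue and 418 to 559 CPM in non-tumour liver, against 133 and 277 CPM in wild-type females. Their sum was 64.0 to 350.0 CPM in knockout males, against 57.3 to 83.7 CPM in wild-type males, where Cftr was at 0. Thus in females the sum of the bile duct markers was higher in every knockout library than in either wild-type library. Against wild-type females, 3 of the 6 were called higher in tumour tissue and 0 in non-tumour liver. In knockout males 0 were called higher and 1 lower than in wild-type males, with a median log2 fold change of -0.01. The 6 macrophage markers summed to 168 to 311 CPM in tumour tissue and 149 to 376 CPM in non-tumour liver, against 91.7 and 96.1 CPM in wild-type females. They summed to 134 to 245 CPM in knockout males, against 200 to 215 CPM in wild-type males. The 6 endothelial markers summed to 74.3 to 96.1 CPM in knockout males, against 118 to 191 CPM in wild-type males, and 3 of them were called lower. The 6 stellate cell markers summed to 227 to 640 CPM in tumour tissue and 234 to 291 CPM in non-tumour liver, against 126 and 196 CPM in wild-type females, with none called. Adipocyte markers, 5 in all, summed to 59.7 to 198 CPM in tumour tissue and 14.8 to 42.3 CPM in non-tumour liver, against 3.99 and 5.01 CPM in wild-type females. Lep was at 0 in all 3 groups, Adipoq in non-tumour liver and wild-type females, and Cfd in wild-type females. Hepatocyte and endothelial sums in males thus did not overlap between knockout and wild type. Nor did cholangiocyte, macrophage, stellate and adipocyte sums in females. Endothelial sums in females were 112 to 139 CPM in tumour tissue, against 94.6 and 108 CPM in wild type. These were apart, with 1 marker called higher. For non-tumour liver, at 93.0 to 99.2 CPM, the endothelial sums overlapped wild type. Hepatocyte sums in females were apart for non-tumour liver and overlapped for tumour tissue. The median log2 fold change of the 8 hepatocyte markers was 0.54 in knockout males and 0.56 in non-tumour liver, each against wild type, with 1 called higher in each. The 6 lymphocyte markers summed to 2.43 to 321 CPM in wild-type males, a range that held the sums of the other groups. The part of these cells in the results that follow was not tested, and in bulk tissue fewer cells of a type and less RNA per cell cannot be told apart.

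Per kilobase of gene model, Scp2 had the highest mean level over the 14 libraries, 390 CPM per kb, followed by Slc27a2 at 345, Slc27a5 at 139.8, Baat at 104 and Hsd17b4 at 80.7 CPM per kb. Acox2 at 29.9, Acnat2 at 26.5, Amacr at 25.7 and Abcd3 at 25.0 CPM per kb came next, and Acot8 was lowest at 6.19 CPM per kb. Each neighbour in this order overlapped the next in its range over libraries, apart from Abcd3 and Acot8. Acot8 stayed between 3.78 and 9.89 CPM per kb, while Abcd3 ran from 13.5 to 45.5 CPM per kb. Acnat2 had the widest range in ratio of the 10, from 2.51 to 78.0 CPM per kb. The order differed between groups: in knockout males Acnat2, at a mean of 3.45 CPM per kb, was below Acot8 at 6.24, while in wild-type males Acnat2, at 60.8, was above Acox2 at 12.2 CPM per kb. In wild-type males Slc27a2, at 523 CPM per kb, was also above Scp2, at 440.3 CPM per kb.

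**Figure D2:**
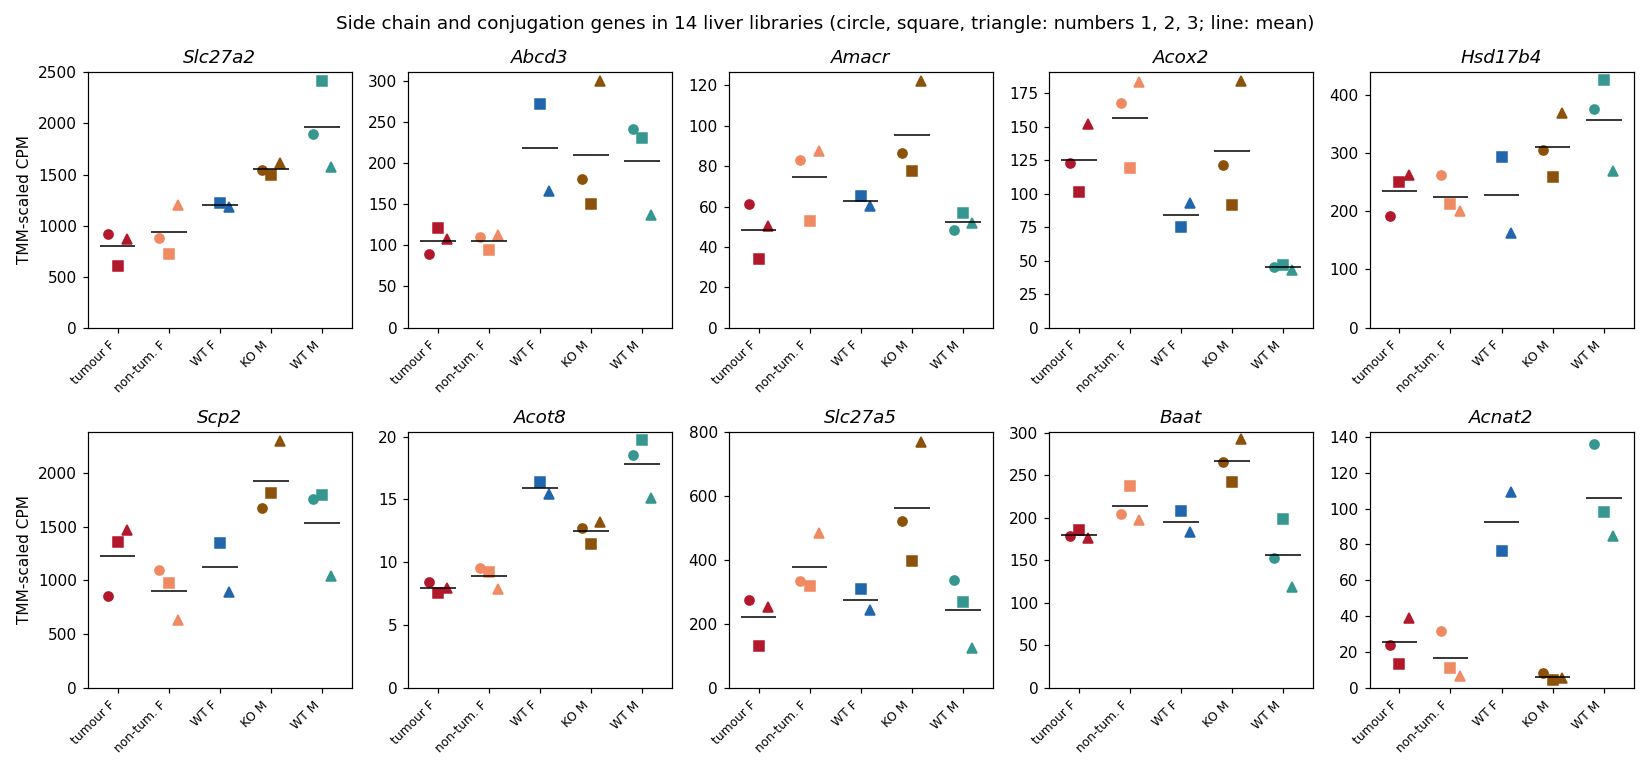
TMM-scaled CPM of the 10 genes (1 panel each, linear axes from 0) in the 14 libraries, by group from tumour tissue of knockout females at the left to wild-type males at the right; points are libraries, shapes their numbers and lines the group means. Acnat2 is at 4.39 to 8.41 CPM in knockout males, against 84.4 to 136 CPM in wild-type males. Acox2 is at 91.4 to 184 CPM in knockout males, against 43.3 to 47.1 CPM in wild-type males.

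In males, 4 of the 10 genes were higher and 1 was lower in knockouts. Acox2, Slc27a5, Amacr and Baat were higher and Acnat2 was lower in knockout males than in wild-type males (edgeR quasi-likelihood test, Benjamini-Hochberg adjusted p under 0.05 over all genes tested). For comparison, 20.6% of all genes tested passed in this comparison, 14.3% higher and 6.32% lower. The median log2 fold change was 0.19 for the 10 genes and 0.11 for all genes. With RLE or upper-quartile scaling the all-gene median moved to 0. Under either scaling 1 member was called higher and 2 lower, in place of 4 and 1. The male fold changes below are those with TMM scaling, and the all-gene median was not taken out of them. With RLE scaling the log2 fold change was 1.42 for Acox2, 1.07 for Slc27a5, 0.75 for Amacr and 0.64 for Baat. With RLE scaling adjusted p was 0.0699 for Baat, 0.0702 for Slc27a5 and 0.0519 for Amacr.

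Acox2, which takes the first oxidation step on the side chain, was at 121, 91.4 and 184 CPM in knockout males, against 45.5, 47.1 and 43.3 CPM in wild-type males. The lowest knockout male was above every wild-type male, and the 3 wild-type males lay close together. The log2 fold change was 1.54 ± 0.27 (SE; edgeR adjusted p = 0.00148). The gene lies on chr14:8225511-8259353, minus strand, on GRCm38.

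Acnat2, on chr4:49379840-49408151 in the same stretch of chromosome 4 as Baat and Acnat1, was at 8.41, 4.39 and 5.26 CPM in knockout males, against 136, 97.9 and 84.4 CPM in wild-type males. The groups were far apart, with a log2 fold change of -4.14 ± 0.58 (SE; edgeR adjusted p = 0.000534). Acnat1, its neighbour, was at 14.2, 9.28 and 9.78 CPM in knockout males and 18.8, 23.4 and 12.2 CPM in wild-type males, and was not called. Of the 125-base windows of the Acnat2 transcript, 9.03% also occur in Acnat1, so a small share of fragments could be assigned to either. The summed level of both genes was 22.6, 13.7 and 15.04 CPM in knockout males and 155, 121 and 96.6 CPM in wild-type males, which also did not overlap.

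Slc27a5, which reactivates bile acids with coenzyme A for conjugation, was at 521, 396 and 769 CPM in knockout males, against 338, 269.6 and 124 CPM in wild-type males. Its log2 fold change was 1.20 ± 0.39 (SE; edgeR adjusted p = 0.0417). Baat, the conjugating enzyme, was at 265, 242 and 292 CPM in knockout males, against 153, 198 and 118 CPM in wild-type males. Its log2 fold change was 0.77 ± 0.23 (SE; edgeR adjusted p = 0.0286). In both genes all knockout males were above all wild-type males, with wild-type male 3 the lowest library. Amacr, the racemase, was at 86.7, 77.7 and 122 CPM in knockout males and 48.4, 56.5 and 51.9 CPM in wild-type males, a log2 fold change of 0.87 ± 0.26 (SE; edgeR adjusted p = 0.0276). Its groups did not overlap either.

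The male calls differed in how far they rested on single libraries. Acox2 and Acnat2 passed without any 1 of the 14 libraries, with adjusted p of 0.00131 to 0.0103 for Acox2 and 4.84e-05 to 0.00481 for Acnat2. Baat missed without 8 of the 14, with adjusted p up to 0.156 without wild-type male 3 and 0.115 without wild-type male 1. Baat also missed without knockout males 1 and 3 (0.0700 and 0.0807), tumour library 2 (0.0746), non-tumour libraries 1 and 3 (0.0749 and 0.0668) and wild-type female 3 (0.0779). Slc27a5 missed without 10 of the 14, with adjusted p of 0.159 without knockout male 3 and 0.156 without wild-type male 3. It also missed without knockout male 1 (0.0772), wild-type male 2 (0.101), tumour libraries 2 and 3 (0.0586 and 0.0522), non-tumour libraries 1 and 3 (0.0801 and 0.0682) and wild-type females 2 and 3 (0.0504 and 0.0804). Amacr missed without 6, with 0.119 without knockout male 3, 0.109, 0.0687 and 0.0866 without wild-type males 1, 2 and 3, 0.0572 without non-tumour library 1 and 0.0615 without wild-type female 3. Knockout male 3 had the lowest mitochondrial share and wild-type male 3 the highest, at 15.7% and 42.2%. With the clock score as a covariate none of the 5 genes passed and all kept their sign. The log2 fold change was then -3.16 for Acnat2 (edgeR adjusted p = 0.0615) and 1.42 for Acox2 (0.108). It was 1.04 for Amacr (0.231), 0.71 for Baat (0.402) and 1.04 for Slc27a5 (0.478).

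The remaining 5 genes were not called between the male groups. Acot8 was at 12.7, 11.5 and 13.2 CPM in knockout males, against 18.6, 19.8 and 15.1 CPM in wild-type males, with every knockout male the lower (log2 fold change -0.52 ± 0.21, SE; edgeR adjusted p = 0.0879). With RLE and upper-quartile scaling Acot8 passed, with adjusted p of 0.0421 and 0.0400. Slc27a2 ranged over 1493 to 1611 CPM in knockout males, against 1571 to 2415 CPM in wild-type males. For Scp2 the knockout males spanned 1674 to 2296 CPM, against 1041 to 1798 CPM in wild-type males. Hsd17b4 covered 259.7 to 368 CPM in knockout males, against 269.7 to 427 CPM in wild-type males. Abcd3 covered 151 to 300.3 CPM in knockout males, against 137 to 241 CPM in wild-type males. These 4 genes overlapped between the groups. Thus with TMM scaling the racemase, the oxidase, the ligase and the conjugating enzyme were called higher. The activating synthetase, the importer, the bifunctional protein and the thiolase gene gave no call. Genes were not tested against each other. With RLE or upper-quartile scaling the racemase, the ligase and the conjugating enzyme were not called either, and the oxidase was. In all, 4 members were higher and 2 lower in every knockout male than in every wild-type male, where 23.1% and 12.2% of all genes tested had that pattern.

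**Figure D3:**
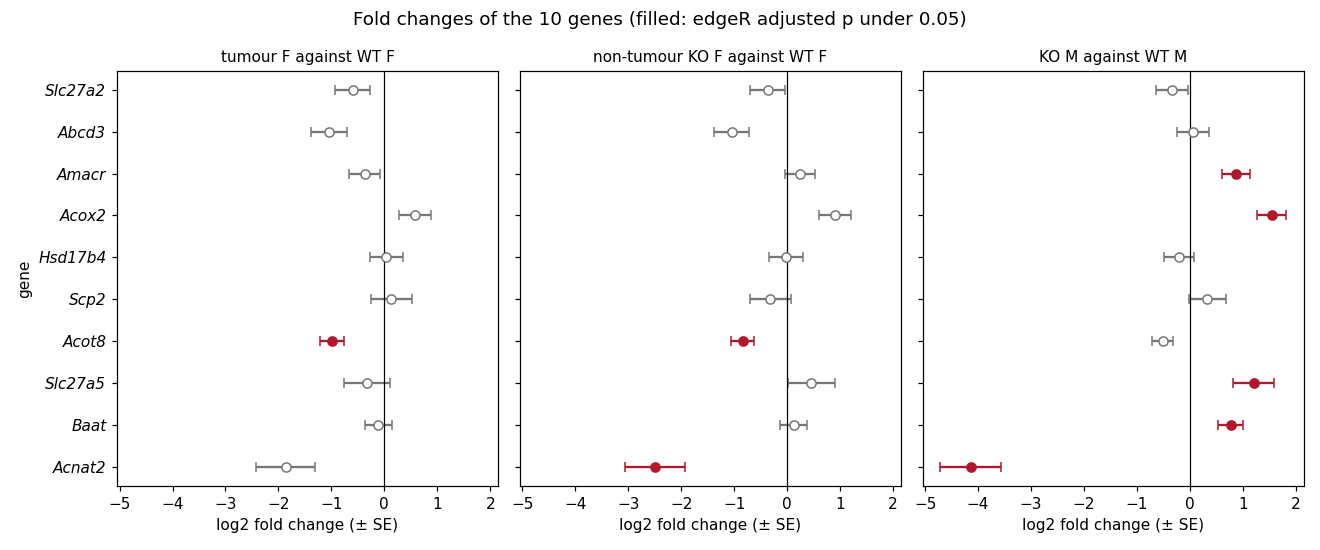
Log2 fold change with its standard error (horizontal axis) for each of the 10 genes (vertical axis) in tumour tissue against wild-type females, in non-tumour knockout liver against wild-type females and in knockout males against wild-type males; filled points passed an edgeR adjusted p under 0.05. Acnat2 lies left of 0 in all 3 panels, at -1.87, -2.49 and -4.14, and Acox2 right of 0, at 0.58, 0.90 and 1.54.

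In non-tumour liver of knockout females, Acot8 and Acnat2 were lower than in wild-type females and no member was called higher. Across all genes 4.16% passed in this comparison, 1.9% higher and 2.26% lower. The median log2 fold change was -0.17 for the 10 genes and 0.00 for all genes. In females the wild-type group had 2 libraries, numbered 2 and 3.

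Acnat2 was at 31.8, 11.2 and 6.47 CPM in non-tumour liver of knockout females, against 76.3 and 109 CPM in wild-type females. The highest non-tumour library was below the lower wild-type one, although the 3 non-tumour libraries spread widely. The log2 fold change was -2.49 ± 0.57 (SE; edgeR adjusted p = 0.0306), and the call was lost without non-tumour library 2 (0.0645) or 3 (0.0852) and without wild-type female 2 (0.0717) or 3 (0.415). Acnat1 was at 19.3, 18.6 and 5.20 CPM in non-tumour liver, against 38.2 and 50.4 CPM in wild-type females, and was also called lower, with a log2 fold change of -1.63 ± 0.42 (SE; edgeR adjusted p = 0.0417). The summed level of Acnat1 and Acnat2 was 51.2, 29.8 and 11.7 CPM in non-tumour liver and 114 and 159 CPM in wild-type females.

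Acot8, the thioesterase that can release bile acids and fatty acids from coenzyme A in the peroxisome, was at 9.55, 9.20 and 7.87 CPM in non-tumour liver of knockout females, against 16.4 and 15.4 CPM in wild-type females. The values within each group were close and the groups were apart, at a log2 fold change of -0.84 ± 0.23 (SE; edgeR adjusted p = 0.0489). This call sat at the threshold: adjusted p was over 0.05 without any 1 of 13 of the 14 libraries, from 0.0511 without knockout male 3 to 0.484 without wild-type female 3, and it held only without wild-type male 3. Leaving out wild-type female 2 gave 0.195, leaving out non-tumour library 1, 2 or 3 gave 0.129, 0.0674 or 0.191, and leaving out the other tumour or male libraries gave 0.0525 to 0.0822. Acot8 shares 246 exon bases with Snx21 on the opposite strand. Whether fragments were counted by strand is not given in the sources used here, and fragments from that stretch cannot be told apart between the 2 genes. Snx21 was at 11.1, 12.8 and 13.2 CPM in non-tumour liver and 18.1 and 20.8 CPM in wild-type females, lower in the same libraries. In males Snx21 was at 18.7, 13.8 and 13.2 CPM in knockouts and 12.0, 7.87 and 5.85 CPM in wild type, the opposite order from Acot8.

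Among the genes without a call, Acox2 was at 168, 119.5 and 183 CPM in non-tumour liver of knockout females, against 75.1 and 92.9 CPM in wild-type females. Every knockout library was higher, and the log2 fold change of 0.90 ± 0.31 (SE) had an edgeR adjusted p of 0.106. DESeq2 and limma-voom called it, with adjusted p of 0.0296 and 0.0194. Abcd3, which brings acyl substrates into the peroxisome, was at 109.6, 94.9 and 113 CPM in non-tumour liver, against 272 and 166 CPM in wild-type females. All knockout libraries were lower, with a log2 fold change of -1.05 ± 0.34 (SE; edgeR adjusted p = 0.0854), and DESeq2 and limma-voom called it with adjusted p of 0.0252 and 0.0126. Slc27a5 was at 336, 318 and 486 CPM in non-tumour liver, against 309.7 and 243 CPM in wild-type females, a small gap with an edgeR adjusted p of 0.596. Baat was at 205, 238 and 197 CPM in non-tumour liver and 207 and 184 CPM in wild-type females, so the conjugating enzyme overlapped. Amacr, Hsd17b4, Scp2 and Slc27a2 overlapped as well. Of the 10 members, 2 were higher and 3 lower in every non-tumour library than in both wild-type females, where 23.2% and 26.5% of all genes tested had that pattern.

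Tumour tissue of knockout females gave no member call against non-tumour liver, where edgeR called no gene at all (0.0%) and 1217 genes had an unadjusted p under 0.05. DESeq2 and limma-voom also called 0 members there, with 29 and 0 genes over the table. Slc27a5 was at 277, 131 and 254 CPM in tumour tissue, against 336, 318 and 486 CPM in non-tumour liver, with every tumour library the lower (log2 fold change -0.78 ± 0.39, SE; edgeR adjusted p = 0.780). Baat was at 179, 186 and 176 CPM in tumour tissue, against 205, 238 and 197 CPM in non-tumour liver, also without overlap (log2 fold change -0.25 ± 0.23, SE; edgeR adjusted p = 0.926). The ligase and the conjugating enzyme were thus the 2 members whose tumour and non-tumour values did not overlap, where 7.64% of all genes were lower and 6.38% higher in that way. Amacr was at 61.3, 33.9 and 50.2 CPM in tumour tissue and 83.1, 52.9 and 87.3 CPM in non-tumour liver, lower within each number but overlapping as groups (edgeR adjusted p = 0.699). Acox2 was likewise lower in tumour tissue within each number, at 123, 101 and 152 CPM, against 168, 119.5 and 183 CPM in non-tumour liver (edgeR adjusted p = 0.904). The labels do not say whether same-numbered libraries share an animal, and the fit did not pair them. The share of all genes lower within each number was not taken.

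Set against wild-type females, tumour tissue gave 1 member call, Acot8, where 9.61% of all genes passed, 3.94% higher and 5.67% lower. This comparison shares its wild-type libraries with that of non-tumour liver. Acot8 was at 8.41, 7.55 and 7.96 CPM in tumour tissue, against 16.4 and 15.4 CPM in wild-type females, a log2 fold change of -1.0 ± 0.23 (SE; edgeR adjusted p = 0.0149). The call was lost without tumour library 2 (0.0657) and without wild-type female 2 (0.0946) or 3 (0.157). Snx21, which overlaps it, was at 10.4, 8.65 and 14.7 CPM in tumour tissue and 18.1 and 20.8 CPM in wild-type females. Acnat2 was at 24.1, 13.2 and 38.9 CPM in tumour tissue, against 76.3 and 109 CPM in wild-type females, with no overlap (log2 fold change -1.87 ± 0.56, SE; edgeR adjusted p = 0.0528). Abcd3 was at 88.9, 121 and 108 CPM in tumour tissue, against 272 and 166 CPM in wild-type females, likewise apart (log2 fold change -1.05 ± 0.34, SE; edgeR adjusted p = 0.0605). DESeq2 and limma-voom called Acnat2 (0.0101 and 0.0214) and Abcd3 (0.0226 and 0.0134) as well as Acot8.

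Slc27a2, the synthetase, was at 919, 600.4 and 866 CPM in tumour tissue, against 1219 and 1182 CPM in wild-type females, lower in every tumour library without a call (edgeR adjusted p = 0.266). Acox2 was at 123, 101 and 152 CPM in tumour tissue, against 75.1 and 92.9 CPM in wild-type females, higher in every tumour library without a call (edgeR adjusted p = 0.239). Scp2 was at 853, 1359.9 and 1472 CPM in tumour tissue and 1351 and 895 CPM in wild-type females. Hsd17b4 was at 192, 249.6 and 263 CPM in tumour tissue and 294 and 164 CPM in wild-type females. The thiolase gene and the bifunctional protein therefore covered the same range in tumour tissue as in wild type. Of Scp2's 125-base windows, 27.5% occur in the pseudogene Scp2-ps2, which was at 21.2 to 34.2 CPM in tumour tissue and 20.9 and 26.1 CPM in wild-type females, far below Scp2. In this comparison 1 member was higher and 4 lower without overlap, where 24.8% and 27.6% of all genes were.

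The difference between the knockout effects, that of non-tumour liver in females minus that in males, was called for none of the 10 genes, where 10.9% of all genes passed, 2.2% higher and 8.68% lower (393 higher and 1552 lower genes; 608 and 1254 with upper-quartile scaling). At an unadjusted p under 0.05, 5034 of all genes passed, and DESeq2 and limma-voom called 0 members. Abcd3 had a difference of -1.10 ± 0.45 on the log2 scale (SE; edgeR adjusted p = 0.128) and Acnat2 one of 1.65 ± 0.78 (SE; edgeR adjusted p = 0.186). For Baat the difference was -0.64 ± 0.34 (SE; edgeR adjusted p = 0.234). So the calls of Baat, Slc27a5, Acox2 and Amacr in males and their absence in females were not shown to differ between the sexes. The female side of this test is non-tumour tissue from tumour-bearing livers, and sex and tumour status cannot be told apart in it. Abcb11 itself was called in this test, with a difference of -1.99 ± 0.49 (SE) and an edgeR adjusted p of 0.0181. Its remaining level was higher in knockout males than in non-tumour liver of knockout females, by a log2 fold change of 1.69 ± 0.33 (SE), with an edgeR adjusted p of 0.0404.

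Among wild-type mice, Acox2 was lower in males, at 45.5, 47.1 and 43.3 CPM, against 75.1 and 92.9 CPM in females (log2 fold change -0.89 ± 0.30, SE; edgeR adjusted p = 0.0416). It was the 1 member called, where 23.1% of all genes passed, 7.03% higher and 16.1% lower. The call was lost without 9 of the 14 libraries: wild-type males 1, 2 and 3 (0.115, 0.105 and 0.121), wild-type females 2 and 3 (0.0771 and 0.332), tumour library 2 (0.0773), non-tumour libraries 1 and 3 (0.0858 and 0.0728) and knockout male 1 (0.0551). With RLE scaling its adjusted p was 0.0673. Slc27a2 was at 1899, 2415 and 1571 CPM in wild-type males and 1219 and 1182 CPM in wild-type females, higher in every male (edgeR adjusted p = 0.147), and DESeq2 called it at 0.0158. In wild type 1 member, Slc27a2, was higher and 2, Acox2 and Amacr, were lower in every male than in both females, where 17.5% and 31.5% of all genes were. In these wild-type libraries, then, the male values were the higher for the synthetase and the lower for the oxidase and the racemase. Only the oxidase was called. The clock score was also apart between these groups, at -2.09 to -1.51 in males and 1.12 to 1.87 in females.

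Knockout males against non-tumour liver of knockout females gave no member call, where 0.392% of all genes passed, with 70 genes in all and 1732 at an unadjusted p under 0.05. DESeq2 called 1 member, Scp2, at an adjusted p of 0.0267, and limma-voom 0. Scp2 was at 1674, 1814 and 2296 CPM in knockout males, against 1099, 974 and 631 CPM in non-tumour liver of knockout females (log2 fold change 1.10 ± 0.35, SE; edgeR adjusted p = 0.233). The 5 members Baat, Slc27a2, Scp2, Acot8 and Abcd3, were higher in every knockout male, where 9.26% of all genes were. Acox2 was at 121, 91.4 and 184 CPM in knockout males and 168, 119.5 and 183 CPM in non-tumour liver, and these overlapped. In wild type its levels did not overlap between the sexes. The difference between the knockout effects was -0.64 ± 0.40 (SE) on the log2 scale for Acox2, with an edgeR adjusted p of 0.313. A sex difference present in wild type alone was therefore not shown.

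**Figure D4:**
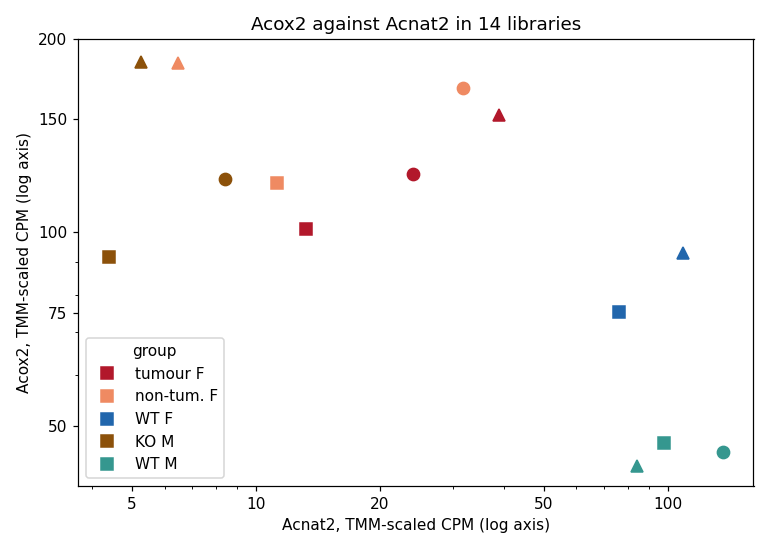
Acox2 (vertical axis) against Acnat2 (horizontal axis), both TMM-scaled CPM on log axes, in 14 libraries; colours are groups and shapes library numbers. The 5 wild-type libraries have the 5 highest Acnat2 values, from 76.3 to 136 CPM, and Acox2 at or below 92.9 CPM, while the 9 knockout libraries have Acnat2 at or below 38.9 CPM and Acox2 at or above 91.4 CPM.

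Within groups the 10 genes varied together only in part. Over the 14 libraries, after the group means were removed, Pearson's r between members ran from -0.16 to 0.87 over 45 pairs, with a median of 0.34, and was highest between Hsd17b4 and Scp2. These values share library depth and scaling and are descriptions. For the next r values the group means were left in, so differences between groups enter them. The genes whose pattern over the 14 libraries was most like that of Baat were Syt1 (r = 0.92), Agmo (0.92), Slc6a12 (0.91), Slc31a1 (0.91) and Sardh (0.91). Those most like Slc27a5 were Cyp2c50 (r = 0.96), Sephs2 (0.95), Ndrg2 (0.95), Slc25a13 (0.94) and Ahcy (0.94). Summed over the 10 genes, the level was 2725 to 3388 CPM in tumour tissue and 2755 to 3179 CPM in non-tumour liver, against 3111 and 3886 CPM in wild-type females. In males the sum was 4540.1 to 5960.4 CPM in knockouts, against 3455 to 5559 CPM in wild type, so that the sums overlapped.

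The rest of the pathway was read from 6 lists of 67 genes, whose counts stand beside the shares of all genes called: 14.3% higher and 6.32% lower in knockout males, 1.9% and 2.26% in non-tumour liver, and 3.94% and 5.67% in tumour tissue against wild-type females. Of the 11 genes of ring synthesis and side chain hydroxylation, 10 were tested, and in knockout males 5 were higher and 1 lower than in wild-type males. Akr1d1, the steroid 5-beta-reductase, had a log2 fold change of 4.20 ± 0.31, Cyp7a1, the rate-limiting hydroxylase, one of 4.82 ± 0.66, and Cyp2c70, which makes muricholic acids in mice, one of 3.84 ± 0.53 (SE; all passed edgeR's adjusted p of 0.05). The list's median log2 fold change was 0.95, against 0.11 for all genes. With the clock score as a covariate 4 genes of the list were called, all higher. In non-tumour liver of knockout females 0 of the 10 passed, and in tumour tissue 2 were lower than in wild-type females, Cyp7a1 at a log2 fold change of -3.02 and Akr1c6 at -1.82. In tumour tissue 0 passed without tumour library 2 or wild-type female 2, and 1 without tumour library 3 or wild-type female 3.

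Of the 5 genes of taurine supply, 2 were higher in knockout males than in wild-type males. They are the transporters Slc6a6, at a log2 fold change of 2.41 ± 0.27 (SE; edgeR adjusted p = 7.3e-05), and Slc6a13, at 1.22 ± 0.35 (SE; edgeR adjusted p = 0.0231). The list's median log2 fold change was 1.0. In non-tumour liver none passed, and in tumour tissue Csad, which makes the taurine precursor hypotaurine, was lower than in wild-type females, with a log2 fold change of -1.05 ± 0.31 (SE; edgeR adjusted p = 0.0470), a call lost with RLE scaling. With the clock score as a covariate 1 gene of the list passed in males, as it did without knockout male 1 or 3 or any 1 wild-type male. The Csad call was the list's 1 call in tumour tissue, and 0 passed there without any 1 of 11 libraries.

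Of 17 other genes of peroxisomal oxidation, 6 were higher and 3 lower in knockout males than in wild-type males, where 14.3% and 6.32% of all genes were. Crat, a carnitine acyltransferase, and Ehhadh, the L-bifunctional protein of straight-chain oxidation, were lower by log2 fold changes of -1.85 ± 0.31 and -2.81 ± 0.50, and Pecr, an enoyl-CoA reductase, was higher by 2.25 ± 0.39 (SE). Of 16 peroxisome assembly genes 6 were higher and 2 lower in the same comparison, among them Pex11g at 1.78 ± 0.26 and Pex2 at 1.10 ± 0.19 on the log2 scale (SE). The medians of the 2 lists were 0.57 and 0.16. The peroxisomal lists thus moved in both directions in males, as did the members. With the clock score as a covariate 0 genes of the oxidation list and 1 of the assembly list passed in males. In non-tumour liver Nudt19 was higher at 1.42 and Eci2 lower at -1.08 among the oxidation genes, and 2 assembly genes were lower, among them Pex26 at -0.85. In tumour tissue Nudt19 and Eci2 passed in the same directions, at 1.32 and -1.16, and 4 assembly genes were lower, among them Pex26 at -0.84 and Pex11g at -0.95. The female counts of both lists were small and 0 passed in either tissue without wild-type female 3. Leaving out wild-type female 2 also left 0 assembly genes in either tissue and 0 oxidation genes in non-tumour liver, and leaving out non-tumour library 3 left 0 of both lists in non-tumour liver. Leaving out non-tumour library 1 left 0 assembly genes in non-tumour liver, and in tumour tissue leaving out tumour library 2 left 0 assembly genes and tumour library 3 left 0 oxidation genes.

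Of 8 thioesterase and acyltransferase relatives of Acot8 and Acnat2, 2 were lower in knockout males than in wild-type males, Acot2 at a log2 fold change of -2.90 ± 0.34 and Acot1 at -3.99 ± 0.73 (SE). In non-tumour liver 3 were lower than in wild-type females, Acot4 at -2.25 ± 0.34, Acot3 at -2.0 ± 0.45 and Acnat1 (SE). In tumour tissue 4 were lower, among them Acot4 at -2.43, Acot3 at -2.27 and Acot1 at -2.84. No relative was called higher in any of these 3 comparisons. In non-tumour liver 1 relative was lower without non-tumour library 1 or 3 or wild-type female 2 or 3, and in tumour tissue 1 or 2 were without any 1 tumour or wild-type female library. The Acot1 to Acot6 genes are close copies in 1 cluster, and fragments shared between them could be assigned to the wrong copy.

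Among 10 regulators of bile acid and peroxisome genes, 4 were lower in non-tumour liver and 5 in tumour tissue than in wild-type females. Ppara, the receptor that drives fatty acid oxidation genes, had a log2 fold change of -2.14 ± 0.38 in non-tumour liver and -2.23 ± 0.38 in tumour tissue. Nr1i3, the constitutive androstane receptor, had -1.89 ± 0.37 and -2.94 ± 0.38 in the same tissues (SE; all passed edgeR's adjusted p of 0.05). In the female comparisons no regulator was called higher. In non-tumour liver 1 regulator was lower without non-tumour library 1 or 3 or wild-type female 2, and 0 without wild-type female 3, while in tumour tissue 3 to 5 were lower without any 1 library. In knockout males 2 regulators were higher and 1 was lower than in wild-type males. Nr1i2, the pregnane X receptor, was higher at 1.01 ± 0.28 and Nr1h4, the bile acid receptor FXR, was lower at -0.94 ± 0.29 on the log2 scale (SE). With the clock score as a covariate none of the 10 passed in males, and 1 did without knockout male 1 or wild-type male 2. No called gene of the 6 lists changed sign under any alternative.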

How the data were processed

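Per the submitters' processing notes, reads were aligned to GRCm38 with HISAT2 2.0.5 and counted per gene with featureCounts 1.5.0-p3; the strand setting is not given in the sources used here. The authors deposited a table with whole fragment counts, FPKM values (which the authors scaled for gene length and for a library total) and gene length, a value in the deposited table that carries no measurement (other). Counts of 14 libraries were tested; FPKM was checked but not tested, and gene length served for levels per kilobase. edgeR 4.0.16 in R 4.3.3 gave quasi-likelihood tests in 1 fit of 5 groups (TMM scaling, filterByExpr, common biological coefficient of variation 0.442), with Benjamini-Hochberg adjustment over 17874 genes and a threshold of 0.05 in 7 comparisons. Each SE was derived from the fold change and its F statistic (|log2 fold change| over √F). Fold changes are printed only where they are at least as large as their SE. DESeq2 1.42.0, limma 3.58.1 (voom with quality weights), other scalings and filters, a replicate block, a clock covariate and libraries left out were the alternatives. The scripts' tests were run on simulated data first. The labels do not say whether tumour and non-tumour libraries share animals. Counts differ in precision with level; intervals are not given, since replicate spread is larger.

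Named genes are all 10 members in every comparison, Abcb11 as a check of the labels, up to 3 genes with the smallest p among those passing from each of 6 pathway lists, and the 5 protein-coding genes most correlated with Baat and with Slc27a5; some genes that this rule names are not reported here. The members and lists were chosen with earlier results of these data known. Same-numbered tumour and non-tumour libraries deviated together from their group means (correlations of 0.493, 0.395 and 0.327 over 8069 genes). The main fit, which gave the printed tests, did not pair them. Libraries of different animals correlated at similar values. Knockout male 3 and non-tumour library 3 did so at 0.406, knockout male 1 and non-tumour library 2 at 0.405, and knockout male 2 and wild-type male 3 at 0.423. The measure therefore does not show which libraries share an animal. Replicate number as a block also ties males and wild-type females by number. With that block, 0 members were called between tumour and non-tumour tissue, as without it.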

Additional observations from a re-analysis of the deposited data

Results flagged for a closer look

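The effect of the knockout differed between non-tumour female liver and male liver for genes of the neighbouring pathway lists, by edgeR's test of the difference itself (adjusted p under 0.05), while none of the 10 members did. Up to 3 genes a list are given, taken in order of p. Each value is the log2 fold change in females (non-tumour knockout liver against wild type) minus that in males. It thus also holds any difference between wild types. In wild-type males against females 1 ring synthesis gene was called higher and 4 lower, with 1 and 5 assembly genes. The counts were 1 and 4 for thioesterase relatives, 4 and 2 for oxidation, 0 and 1 for taurine and 0 and 4 for regulators. Knockout males against non-tumour liver gave 1 higher and 1 lower oxidation gene and 0 calls in the other lists. Over all genes 23.1% and 0.392% passed, in that order. Among ring synthesis genes the difference was -5.72 for Cyp7a1, -3.82 for Akr1d1 and -2.26 for Akr1c6. Among other peroxisomal oxidation genes it was 2.81 for Ehhadh, -1.90 for Nudt7 and -0.90 for Acox3. Among peroxisome assembly genes it was -2.48 for Pex11g, -1.67 for Pex26 and -1.10 for Pex2. Among thioesterase relatives it was 2.71 for Acot2, -2.21 for Acot3 and -2.10 for Acot4. For the taurine transporter Slc6a6 it was -2.01, and among regulators it was -2.32 for Nr1i3 and -2.27 for Ppara. The clock score did not overlap between the male groups, and with it as a covariate 448 of all genes passed for the difference, against 1945 without it. Of the lists, 4 ring synthesis genes, 2 assembly genes, 1 thioesterase relative, 1 regulator, 0 oxidation genes and 0 taurine genes then passed. Single libraries also moved these counts. Without wild-type female 3 the oxidation list had 0 calls in place of 3, ring synthesis 2 in place of 4, assembly 2 in place of 5 and regulators 1 in place of 3. Ring synthesis also had 2 without non-tumour library 3 or wild-type female 2, and the oxidation list 1 without knockout male 1. Assembly also had 2 without tumour library 2, non-tumour library 1 or 3, wild-type female 2 or wild-type male 3, and 3 without knockout male 1 or 2 or wild-type male 2.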

How the results depend on the processing

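No reported fold change of a member changed sign in 1175 recomputed values, of which 95 lost and 29 gained a call; where a call changed, the cause was not tested. Knockout against wild-type males (5 members called): 6 with DESeq2, which added Acot8 (adjusted p = 0.0138), 3 with RLE scaling, upper-quartile scaling, a filter of 1 CPM in 3 libraries, limma-voom or mitochondrially encoded genes left out, 2 with the compared groups alone or without both knockout female libraries numbered 1, and 0 with the clock covariate. Non-tumour liver against wild-type females (2 called): 4 with DESeq2 or limma-voom, 1 with upper-quartile scaling, no low-count filter, the clock covariate, mitochondrially encoded genes left out or both libraries numbered 1 left out, and 0 with the compared groups alone. Tumour tissue against wild-type females (1 called): 3 with DESeq2 or limma-voom, and 2 with no filter, the 1 CPM filter, the compared groups alone or both libraries numbered 1 left out. Wild-type males against females (1 called): 2 with DESeq2, and 0 with RLE, upper-quartile scaling, no filter, the 1 CPM filter, the clock covariate, mitochondrially encoded genes left out or both libraries numbered 1 left out. Without a low-count filter 1 member, Acnat2, passed for the difference of the knockout effects and for knockout males against non-tumour liver; DESeq2 also called 1 in the latter comparison. With replicate number as a block, 1 member was called in non-tumour liver, where Acot8 was lost (adjusted p = 0.0673), and 2 in tumour tissue against wild-type females, where Acnat2 was gained (0.0184); the block also lost Slc27a5 in males (0.0590) and changed no other member call. Leaving out 1 library gave 2 to 5 members in knockout males, 0 to 2 in either knockout female tissue against wild type, 0 to 1 in wild-type males against females and 0 to 0 elsewhere. Over all genes the count ran from 361 to 4582 in males and from 17 to 3397 in non-tumour liver. The settings without mitochondrially encoded genes and without the libraries numbered 1 were chosen after seeing the data. The wild-type females, with 2 libraries, limit every female contrast.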
